A study of Mus musculus with 20 samples.

Results

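Livers of mice that had lived under a medium dose-rate of gamma rays were compared with livers of mice kept under a low one, in the second of a pair of long-term experiments. The 6 arrays were those titled M2-1 to M2-3 and L2-1 to L2-3 in the series, out of 20 arrays in all, so membership followed the titles and not any measured value. All 6 mice were male C57BL/6J, 8 weeks old when exposure began, kept specific pathogen free and irradiated over the whole body with 137Cs gamma rays for 22 h each day during 401 days. The 3 medium mice received 1.00 mGy per day and 401 mGy in total, and the 3 low mice 0.05 mGy per day and 20 mGy in total. Both groups were therefore irradiated, and the contrast is between dose-rates and not against unirradiated animals. Each array carried liver RNA of 1 mouse. The same experiment held 3 high dose-rate mice (20.0 mGy per day, 8015 mGy) and an unirradiated control, a pool of RNA from 6 mice on 1 array. Another experiment, of 485 days, held 3 medium mice (0.858 mGy per day, 416 mGy) and 3 low mice (0.042 mGy per day, 20.6 mGy). These mice were also 8 weeks old when exposure began. They gave a separate comparison of the same kind. Mice were killed when irradiation stopped. Neither the hour of killing nor the feeding state is given in the sources used here.

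The liver makes and exports glucose, cholesterol, fatty acids and plasma proteins, and its hepatocytes switch these programmes with feeding, hormones and time of day. Sterol and fatty acid synthesis genes are driven by the SREBP transcription factors, which respond to sterol shortage and to insulin. Interferons, released during infection and inflammation, induce antiviral genes, GTPases that attack intracellular microbes and, for interferon gamma, the MHC class II genes that present antigen to helper T cells.

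Signal was taken on the log2 scale after adding 7.12, and differences are medium minus low on that scale with the standard error of the contrast. The fold of a gene with low signal is understated on it. The 6 arrays had median signals of 81.7 to 94.4 and Gapdh ratios between 3' and 5' probe sets, which reflect RNA integrity, of 0.877 to 0.993. The same ratio for actin was higher, 2.32 to 2.61. Hepatocyte RNA dominated in all 6, with albumin at 71569 to 85183 and the summed signal of 13 hepatocyte markers at 576311 to 609642 in low and 585431 to 643255 in medium mice. Correlations across genes were 0.965 to 0.976 among the low mice, 0.972 to 0.973 among the medium mice and 0.958 to 0.975 between the groups, so the ranges within and between groups overlapped. The first principal component of the 6 arrays held 33.6% of the variance. On it low mouse 2 (-32.7) and low mouse 1 (-19.6) lay apart from low mouse 3 (11.9), which lay among the medium mice at 2.9, 12.4 and 25.2. For several gene lists, values with 1 mouse left out are given beside the result.

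The comparison asked which liver genes differ between a total dose of 401 mGy and one of 20 mGy. Of 11216 genes, limma placed 2 past an adjusted p of 0.05 (0.0178% of genes), Stap1 higher (0.00892%) and Nop58 lower (0.00892%) in medium mice. Unadjusted p values below 0.05 numbered 1067 (9.51%), where 561 would arise by chance, and 581 of them were higher (5.18%) and 486 lower (4.33%). With 1 mouse left out this share was 6.71%, 5.65% and 13% without low mouse 1, 2 and 3. It was 9.02%, 7.63% and 7.37% without medium mouse 1, 2 and 3. Counts of list members with a mouse left out are to be read beside these shares. All genes together split into 5856 higher (52.2%) and 5360 lower (47.8%), with a median difference of 0.01 and a median size of 0.16 on the log2 scale. In 1812 genes (16.2%) the 3 mice of a group all lay above the 3 of the other, with the medium mice above in 959 (8.55%) and below in 853 (7.61%). After centring each array on its median the share of higher genes among those with separate groups went from 52.9% to 39.9%, and among those with an unadjusted p under 0.05 from 54.5% to 39.8%. The genes higher at such a p went from 581 to 320 and the lower ones from 486 to 484. For a single gene, an exact permutation test of 3 mice against 3 cannot go below 0.1.

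Stap1, a signal-transducing adaptor protein of blood cells, rose in medium dose-rate livers. Its signal was 42.1, 9.43 and 29.7 in low mice 1, 2 and 3 and 280, 156 and 393 in medium mice 1, 2 and 3. The groups did not overlap, yet all 3 low values lay under the median of their array, where the size of a change is poorly measured. The difference was 3.09 ± 0.48 (adjusted p = 0.0395, limma), from a mean of 27.1 ± 16.5 to one of 276 ± 119 (SD, n = 3 each). High dose-rate mice had 278, 115 and 266 and the control pool 98.2, so the pool lay between the groups. In the experiment of 485 days the same difference was -0.37 ± 0.48.

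Nop58 encodes a core protein of the box C/D particles that guide methylation of ribosomal RNA. Its signal was 299, 384 and 303 in the low mice and 179, 159 and 145 in the medium mice, again without overlap. Nop58 fell by 0.99 ± 0.16 on the log2 scale (adjusted p = 0.0395, limma), from 328 ± 48.2 to 161 ± 16.8 (SD, n = 3 each). The control pool read 205 and the high dose-rate mice 210, 177 and 211, so the pool and the high mice at 210 and 211 lay between the groups and the remaining one within the medium range. The difference in the 485-day experiment was -0.31 ± 0.16. Both calls depended on single mice. Without low mouse 2, medium mouse 1 or medium mouse 3 no gene passed, with adjusted p for Stap1 of 0.18, 0.21 and 0.207 and for Nop58 of 0.246, 0.167 and 0.207. The call of Nop58 alone ended without low mouse 1 (0.0814, with 2 genes past the threshold, Stap1 and Atg14) and without medium mouse 2 (0.105, with 3, Stap1, Lect2 and Fmr1nb). Both calls also ended with quantile normalization (adjusted p = 0.0676 for each) and with a fit of the 6 arrays alone (0.281 for each).

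**Figure D1:**
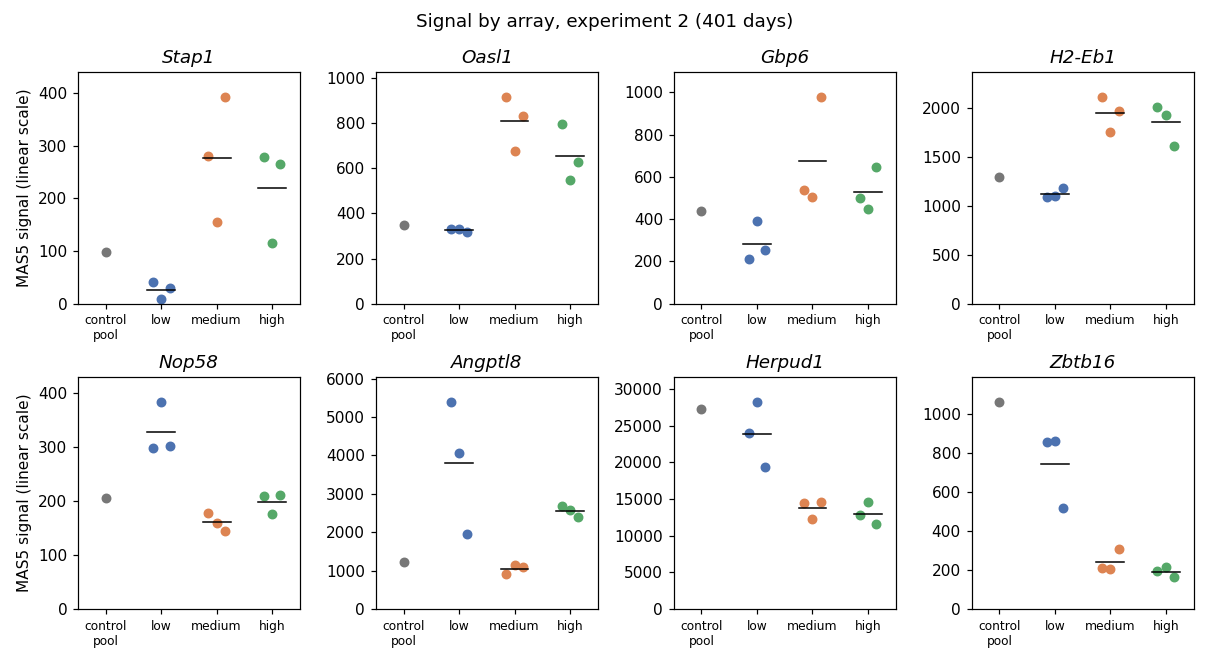
MAS5 signal on a linear scale (vertical axes, each starting at 0) for 8 genes on the 10 arrays of the 401-day experiment; points are arrays, black bars are means of 3 mice, and the control is 1 pool. Medium mice lie above all low mice for Stap1, Oasl1, Gbp6 and H2-Eb1 and below them for Nop58, Angptl8, Herpud1 and Zbtb16, of which only Stap1 and Nop58 passed the adjusted threshold.

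Without low mouse 3, 15 genes passed (6 higher, 9 lower), among them Stap1, Nop58, Angptl8, Herpud1 and Dnajb9. The remaining genes are described by their values, since none of them passed with all 6 mice.

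Interferon-induced antiviral genes were mostly higher in the medium mice. Of 24 members tested, 21 were higher and 3 lower, with a median of 0.39 against 0.01 for all genes, and 6 of the higher ones (5.18% of all genes) had an unadjusted p under 0.05 with 0 among the lower ones. In 8 of the 24 all medium mice lay above all low mice, where 8.55% of all genes did. None passed the adjusted threshold. Oasl1, a 2'-5' oligoadenylate synthetase-like protein, read 330, 331 and 318 in low mice and 917, 676 and 832 in medium mice, with a difference of 1.28 ± 0.25 (adjusted p = 0.138). The low mice lay close together and close to the control pool (347), and the high mice read 794, 546 and 629. Ifit1, which binds viral RNA that lacks a host cap, was 133, 259 and 160 against 321, 266 and 621 (1.06 ± 0.43, adjusted p = 0.438), so low mouse 2 came close to medium mouse 2. The RNA sensors Ifih1 (0.46 ± 0.16, adjusted p = 0.372) and Ddx58 (0.46 ± 0.19, adjusted p = 0.451) also had separate groups. Leaving out 1 mouse at a time left 2 to 7 members with an unadjusted p under 0.05 and a median of 0.29 to 0.45. The 2 was reached without medium mouse 3, where 434 of all 11216 genes were higher at such a p. Without low mouse 3, 3 members were left, where 807 of all genes were higher at such a p. After centring each array on its median, 4 members were higher at such a p (median 0.34).

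The GTPases induced by interferon gamma, which coat and break the vacuoles of intracellular microbes, showed the same direction. Of 10 members 9 were higher, with a median of 0.42. An unadjusted p under 0.05 was found in 6 of the higher ones, against 5.18% of all genes, and 6 had separate groups, against 8.55%. Gbp6 read 210, 391 and 254 in low mice and 538, 505 and 979 in medium mice (1.20 ± 0.26, adjusted p = 0.138). Its high dose-rate mice read 499, 446 and 647 and the pool 440. Gbp2 was 155, 228 and 180 against 325, 322 and 307 (0.76 ± 0.29, adjusted p = 0.422), a tight medium group well above the low one. Ifi47 differed by 0.62 ± 0.18 (adjusted p = 0.293) and Igtp by 0.43 ± 0.19 (adjusted p = 0.508), while Gbp3 was -0.27. Only 2 members kept an unadjusted p under 0.05 without low mouse 1, and 3 each without low mouse 3, medium mouse 1 or medium mouse 3, with medians from 0.31 to 0.50 over all 6 omissions. After centring each array on its median, 3 members had such a p (median 0.37).

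The MHC class II genes were higher in all 6 members tested, with a median of 0.56. Unadjusted p values were below 0.05 in 5 of them, against 5.18% of all genes, and 4 had separate groups, against 8.55%. H2-Eb1, a class II beta chain, read 1088, 1097 and 1185 in low mice and 2114, 1757 and 1973 in medium mice (0.79 ± 0.18, adjusted p = 0.166). The distance between the groups was several times the spread inside either, and the pool (1292) lay near the low mice while the high mice (2008, 1931 and 1614) lay near the medium ones. H2-Aa, an alpha chain, read 2438, 2320 and 2640 against 3501, 3151 and 3880 (0.51 ± 0.22, adjusted p = 0.470). Its probe set is of the kind that can bind related transcripts. H2-Ab1 (0.58 ± 0.24, adjusted p = 0.442) and the invariant chain Cd74 (0.53 ± 0.25, adjusted p = 0.509) also had separate groups. H2-DMb2, part of the peptide exchanger, had the greatest difference (1.64 ± 0.64) but low mouse 2 overlapped the medium mice, and 1 of its 2 other probe sets was opposite. Low mice 1 and 3, at 22.9 and 23.8, were under their array medians. Over other processing choices and omissions of 1 mouse its difference ran from 0.31 to 2.36. Without low mouse 1 or medium mouse 1, 1 member kept an unadjusted p under 0.05, and without low mouse 3, 2 did, with medians of 0.48 to 0.67 over the omissions. After centring each array on its median, 2 members had such a p (median 0.51). MHC class I and peptide loading genes were less uniform (8 of 11 higher, median 0.15), with the peptide transporter Tap1 at 0.56 ± 0.21 and the trimming enzyme Erap1 at -0.30 ± 0.14.

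The start regions of 4 of these genes are shown because their lists moved in the same direction and each holds a motif known for such genes. Each is 250 bases before to 50 after the start, 5′ to 3′ on the gene's strand, from RefSeq on GRCm38.p6: Ifit1 at chr19:34640639-34640938 (plus strand), Igtp at chr11:58199306-58199605 (plus), Gbp2 at chr3:142620413-142620712 (plus) and H2-Eb1 at chr17:34305617-34305916 (plus). Capitals mark the interferon-stimulated response element, searched as a pair of GAAA runs with any 2 bases between them on either strand, in Ifit1, Igtp and Gbp2, and the Y box CTGATTGG in H2-Eb1.
Ifit1: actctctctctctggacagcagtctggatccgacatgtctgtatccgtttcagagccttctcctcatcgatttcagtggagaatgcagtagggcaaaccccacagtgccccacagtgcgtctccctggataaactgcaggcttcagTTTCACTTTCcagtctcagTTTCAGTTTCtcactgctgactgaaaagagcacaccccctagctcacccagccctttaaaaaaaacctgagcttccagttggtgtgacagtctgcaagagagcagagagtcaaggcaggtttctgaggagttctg
Igtp: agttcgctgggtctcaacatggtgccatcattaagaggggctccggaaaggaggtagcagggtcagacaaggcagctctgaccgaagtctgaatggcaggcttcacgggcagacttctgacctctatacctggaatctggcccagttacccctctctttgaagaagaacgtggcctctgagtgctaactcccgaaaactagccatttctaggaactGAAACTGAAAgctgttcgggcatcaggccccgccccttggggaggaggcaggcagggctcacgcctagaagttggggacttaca
Gbp2: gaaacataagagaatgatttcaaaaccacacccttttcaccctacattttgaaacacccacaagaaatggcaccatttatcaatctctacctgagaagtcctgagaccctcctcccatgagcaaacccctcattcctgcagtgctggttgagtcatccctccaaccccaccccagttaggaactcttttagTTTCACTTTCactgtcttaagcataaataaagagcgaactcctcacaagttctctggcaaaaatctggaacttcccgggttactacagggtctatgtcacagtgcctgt
H2-Eb1: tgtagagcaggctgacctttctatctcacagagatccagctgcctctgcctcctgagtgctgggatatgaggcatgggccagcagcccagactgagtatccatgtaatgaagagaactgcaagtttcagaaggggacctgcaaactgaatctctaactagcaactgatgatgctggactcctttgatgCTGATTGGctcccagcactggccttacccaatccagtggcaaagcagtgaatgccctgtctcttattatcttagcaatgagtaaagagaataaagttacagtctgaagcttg
Of 32851 windows of this length, 3.44% held the response element on either strand, and 10 of 19 interferon response genes and 6 of 7 GTPase genes with a window did. Ifit1 held 2 copies. The Y box was in 4.1% of windows and in 2 of 4 MHC class II genes, those of H2-Eb1 and H2-Aa. It was not particular to these genes, being also in 9 of 22 endoplasmic reticulum stress genes, 6 of 16 cholesterol synthesis genes and 3 of 18 heat shock chaperones with a window. It was in 0 of 19 interferon response genes and 0 of 7 GTPases. A list gene counted if any of its start windows held the motif, while the share of all windows counted each window. The 2 are therefore not counted alike. These are matches of letters and not measured binding.

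Sums of immune cell markers overlapped between the groups in each list. The summed signal of 16 Kupffer cell and macrophage markers was 41142 to 46992 in low and 35133 to 44354 in medium mice, and 14 of the 16 were lower (median -0.18), with 0 at an unadjusted limma p under 0.05. That lean rested on medium mouse 3, without which 8 were higher and 8 lower (median -0.02), while without medium mouse 1 the median was -0.28. For 12 B and plasma cell markers the sums were 9569 to 11903 and 11116 to 14497, with 7 of 9 tested members higher (median 0.22). Monocyte and neutrophil markers summed to 963 to 1506 and 1115 to 2429, with medium mouse 1 highest and 5 of 10 markers under a mean signal of 100. Their median of 0.28 over 6 tested members was 0.07 without medium mouse 1 and -0.02 without low mouse 1. T and NK cell markers summed to 832 to 889 and 791 to 1251, and 15 of 16 were under 100, with a median of 0.22 over 5 tested members that was -0.12 without low mouse 3 and -0.26 without medium mouse 1. In whole liver, fewer cells of a type and less RNA per cell cannot be told apart. The part of B cells or monocytes in the interferon and MHC class II values was not tested.

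The 485-day experiment gave these immune genes the opposite sign, with no mouse in common. There 19 of 24 interferon response genes were lower in medium mice (median -0.43), as were all 10 GTPases (-0.35) and all 6 MHC class II genes (-0.66). Gbp6 read 1273, 837 and 1177 in low mice and 541, 507 and 641 in medium mice of that experiment, a difference of -0.94 ± 0.26, against 1.20 ± 0.26 at 401 days. H2-Eb1 read 2157, 1360 and 2744 against 1309, 1254 and 1559, a difference of -0.55 ± 0.18. The test of the difference between experiments had an unadjusted p under 0.05 for 13 of 24 interferon response genes, 7 of 10 GTPases and 5 of 6 MHC class II genes, against 955 of all 11216 (8.51%). No gene passed it after adjustment in limma (0%), the smallest adjusted p being 0.0693, shared by Gbp6, Angptl8 and Dennd11. Without low mouse 2 of the 485-day experiment 13 genes passed, among them Gbp2, Gbp6, H2-Ab1, H2-Eb1 and Ddx58.

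Immune cell markers and acute phase genes were also mostly lower in the medium mice at 485 days. Monocyte and neutrophil markers were lower in the medium mice in 5 of 6 tested members (median -0.71), T and NK cell markers in 4 of 5 (-1.02), Kupffer cell and macrophage markers in 12 of 16 (-0.31), B and plasma cell markers in 7 of 9 (-0.18) and acute phase genes in 17 of 24 (-0.29). Lcn2, a neutrophil and acute phase protein that sequesters bacterial iron carriers, read 28487, 512 and 2149 in the low mice and 675, 455 and 1030 in the medium mice of that experiment. Low mouse 1 there was thus far above all others, and the summed signal of 10 monocyte and neutrophil markers was 32700 in it against 1408 and 4294 in the other low mice and 1602 to 3017 in the medium mice. Omitting single mice of the 485-day experiment was added after the data had been seen. Without its low mouse 1 the acute phase median was 0.06 and that of monocyte and neutrophil markers -0.23, while the medians were -0.37 for interferon response genes, -0.32 for the GTPases and -0.69 for MHC class II. Without its low mouse 3, 0 interferon response genes were lower at an unadjusted limma p under 0.05, instead of 8 (median -0.23). So were 1 GTPase instead of 4 and 1 MHC class II gene instead of 4. These counts are for the 485-day experiment, where 8.18% of all genes had such a p in either direction with all mice. The share of all genes lower at such a p with a mouse left out was not computed there. Over the omissions of any of the 12 mice of both experiments, the test of the difference had an unadjusted p under 0.05 for 9 to 17 interferon response genes, 5 to 8 GTPases and 5 to 6 MHC class II genes. The share of all genes ran from 6.63% to 11.6% over these omissions. The part of these cells and of the acute phase genes in the difference was not tested.

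**Figure D2:**
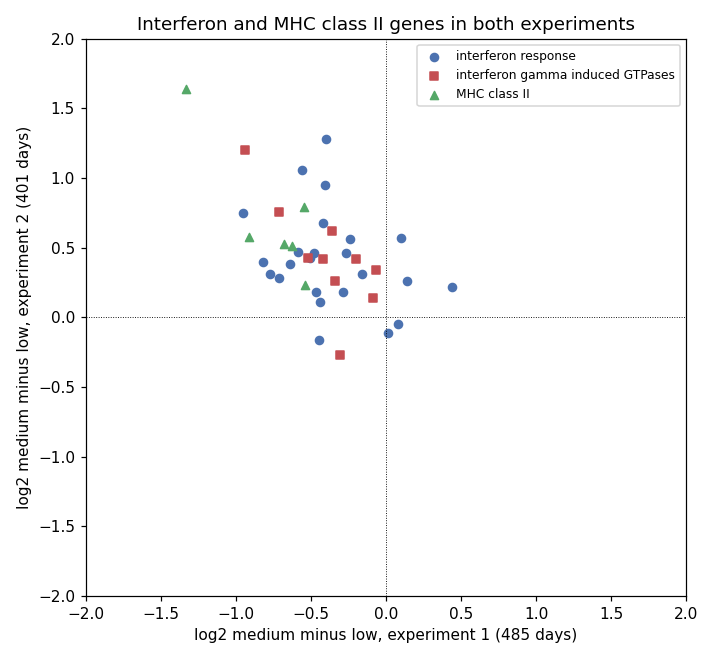
Log2 difference, medium minus low, at 485 days (horizontal axis) and 401 days (vertical axis) for 24 interferon response genes, 10 interferon gamma induced GTPases and 6 MHC class II genes; each point is a gene. Most points lie at the upper left, higher at 401 days and lower at 485 days, including all 6 MHC class II genes.

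Over all genes the 2 experiments had little in common. The correlation across 11216 genes of their differences was -0.06, a description only, since genes are not independent replicates. Groups were separate in the same direction in both experiments for 102 genes (0.909%) and in opposite directions for 101 (0.9%). At 485 days no gene passed in limma (0%), the smallest adjusted p was 0.266, and 917 genes (8.18%) had an unadjusted p under 0.05.

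Cholesterol synthesis genes were higher in medium mice in 19 of 20 members, with a median of 0.40, and 11 of the higher ones had an unadjusted p under 0.05, against 5.18% of all genes. In 9 of the 20 all medium mice lay above all low mice, against 8.55% of all genes. None passed the adjusted threshold. Dhcr7, which reduces a dehydrocholesterol to cholesterol, read 1580, 1136 and 1820 in low mice and 2734, 3619 and 2168 in medium mice (0.90 ± 0.23, adjusted p = 0.226). Msmo1, a sterol methyl oxidase, read 2617, 1621 and 2491 against 5404, 4198 and 3944 (1.02 ± 0.31, adjusted p = 0.309). The prenyl and squalene enzymes behaved alike, with Fdps at 0.74 ± 0.25 (adjusted p = 0.364) and Fdft1 at 0.65 ± 0.22 (adjusted p = 0.364). Sc5d, a sterol desaturase, was 0.41 ± 0.14 (adjusted p = 0.364). In each of these genes low mouse 2 was the lowest of the 6. Without it 2 members instead of 11 had an unadjusted p under 0.05 and the median was 0.29, and without medium mouse 1, 5 did and the median was 0.40. Without medium mouse 2, 7 did. After centring each array on its median, 8 did (median 0.35). Such a p was found in 5.65% of all genes without low mouse 2, 9.02% without medium mouse 1 and 7.63% without medium mouse 2. At 485 days the members split 10 to 10 with a median of 0.04. The sterol regulatory element TCACNCCAC was in 1 of 16 members with a start window, counted by gene, against 1.24% of all windows, counted by window.

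Fatty acid synthesis genes followed in 19 of 22 members, with a median of 0.31 and 5 at an unadjusted p under 0.05 among the higher ones, against 5.18% of all genes. The groups were separate in 2, a share near the 8.55% of all genes. Fads1, a desaturase of polyunsaturated fatty acids, was 10470, 8525 and 11307 against 12793, 12502 and 14085 (0.39 ± 0.13, adjusted p = 0.364). Gpam, which starts triglyceride synthesis, was 11867, 9571 and 14927 against 17435, 25342 and 17895 (0.74 ± 0.27, adjusted p = 0.400). The groups were separate in both genes, while for Srebf1, the regulator itself, they overlapped (0.57 ± 0.26, adjusted p = 0.508). This list too leaned on low mouse 2. Without it 0 members had an unadjusted limma p under 0.05 and the median was 0.08, while without low mouse 3, 9 did and the median was 0.51. Without low mouse 1, 3 did. Without medium mouse 2, 2 higher members and 1 lower member did, and the median was 0.10. After centring each array on its median, 3 did (median 0.26). Such a p was found in 5.65% of all genes without low mouse 2 and in 13% without low mouse 3. At 485 days the median was -0.05.

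**Figure D3:**
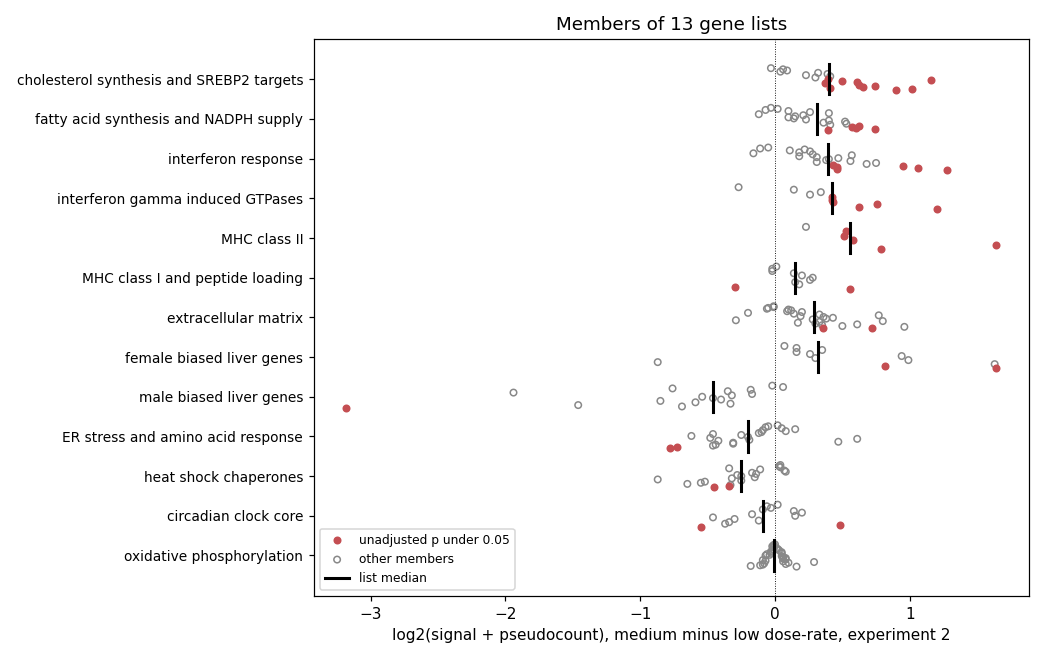
Log2 difference, medium minus low at 401 days (horizontal axis), for every tested member of 13 gene lists; filled points have an unadjusted p under 0.05 and black bars are list medians. Cholesterol synthesis (median 0.40), interferon response (0.39) and MHC class II (0.56) lie to the right of 0 and male-biased genes (-0.46) to the left, while oxidative phosphorylation (-0.01) is centred near 0.

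Genes of the endoplasmic reticulum stress response, which fold or destroy misfolded secretory proteins, were lower in 18 of 24 members, with a median of -0.20. Unadjusted p values were below 0.05 in 2 of the lower ones, against 4.33% of all genes, and 3 had all medium mice below all low mice, against 7.61% of all genes. Herpud1, a component of the machinery that removes misfolded proteins, read 24051, 28234 and 19408 in low mice and 14408, 12305 and 14530 in medium mice (-0.78 ± 0.16, adjusted p = 0.138). The high mice (12834, 14636 and 11607) were at the level of the medium mice and the pool (27251) at that of the low mice. Dnajb9, a co-chaperone of the lumenal chaperone BiP, read 9133, 10303 and 6895 against 5733, 4478 and 5547 (-0.73 ± 0.15, adjusted p = 0.138). Hspa5, which encodes BiP, was -0.12 ± 0.16 with overlapping groups. Low mouse 3 had the lowest values of the low mice for Herpud1 and Dnajb9, and without it 12 members had an unadjusted p under 0.05 among the lower ones and the median was -0.37. Without medium mouse 1, 4 did, and after centring each array on its median 4 did (median -0.25). The median was -0.10 without low mouse 1, -0.05 without low mouse 2 and -0.06 without medium mouse 2. Of all 11216 genes, 653 were lower at such a p without low mouse 3 and 470 without medium mouse 1, against 486 with all 6 mice.

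The Herpud1 start region is shown for its stress element. It lies at chr8:94386179-94386478 (plus strand, GRCm38.p6, RefSeq). Capitals mark CTGATTGG and the endoplasmic reticulum stress element II that overlaps it, searched as ATTGG, 1 base of any kind and CCACG on either strand.
Herpud1: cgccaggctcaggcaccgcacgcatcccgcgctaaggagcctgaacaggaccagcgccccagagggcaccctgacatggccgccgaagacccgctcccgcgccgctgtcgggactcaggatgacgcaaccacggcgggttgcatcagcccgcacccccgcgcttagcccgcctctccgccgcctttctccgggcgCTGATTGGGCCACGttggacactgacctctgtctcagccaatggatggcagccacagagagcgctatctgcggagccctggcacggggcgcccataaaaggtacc
That element was in 0.0365% of all windows, 12 of 32851, and Herpud1 was the 1 member among 22 with a window that held it. It was also in 1 of 18 heat shock chaperones. The longer stress element, CCAAT and CCACG with 9 bases of any kind between them, was in 0.119% of all windows, counted by window. It was in 8 of 22 members of the list, counted by gene.

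Cytosolic heat shock chaperones were lower in 16 of 21 members (median -0.25). In 0 of the 21 all medium mice lay below all low mice, against 7.61% of all genes. Unadjusted p values were below 0.05 in 2 of the lower ones, against 4.33% of all genes. These were the co-chaperones Dnajb4 (-0.45 ± 0.16, adjusted p = 0.400) and Chordc1 (-0.34 ± 0.16, adjusted p = 0.509). Without low mouse 3, 9 members had an unadjusted p under 0.05 and the median was -0.43, without medium mouse 1, 7 did, without low mouse 1, 1 did, and without low mouse 2 or medium mouse 2, 0 did in limma. The median was -0.11 without low mouse 2 and -0.16 without medium mouse 3. After centring each array on its median, 1 member had an unadjusted p under 0.05 (median -0.30). Of all 11216 genes, 653 were lower at such a p without low mouse 3 and 272 without low mouse 2. Unlike the endoplasmic reticulum list, with a median of -0.06 at 485 days, this list had a median of -0.28 there. The difference between the lists was not tested.

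Sex-biased liver genes, which growth hormone pulses keep male or female in pattern, varied widely from mouse to mouse. Male-biased genes were lower in 16 of 17 members (median -0.46) and female-biased genes higher in 11 of 12 (median 0.32). Only Obp2a, Cyp17a1 and Atp6v0d2 had an unadjusted p under 0.05, against 9.51% of all genes. Obp2a, an odorant-binding lipocalin, read 603, 4113 and 490 in low mice and 51, 337 and 77.3 in medium mice (-3.18 ± 0.92, adjusted p = 0.293). The groups were separate, but low mouse 2 alone was several times higher than the others. Cyp17a1, a steroid hydroxylase, read 190, 23.5 and 303 against 289, 277 and 664 (1.64 ± 0.64, adjusted p = 0.427), with overlap. Taking each gene relative to its mean over the 6 arrays, the median of the male-biased list was 0.31, 0.83 and -0.27 in low mice 1, 2 and 3 and 0.24, -0.13 and -0.71 in medium mice 1, 2 and 3. That of the female-biased list was -0.31, -1.0 and 0.63 against -0.16, 0.29 and 0.70. Low mice 1 and 2 and medium mouse 1 thus had higher male-biased and lower female-biased medians, and low mouse 3 and medium mice 2 and 3 the reverse. The male-biased median was -0.17 without low mouse 2, -0.96 without low mouse 3, -0.71 without medium mouse 1 and -0.22 without medium mouse 3. The female-biased median was 0.21 without low mouse 2, 1.00 without low mouse 3, 0.61 without medium mouse 1 and 0.14 without medium mouse 3.

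**Figure D4:**
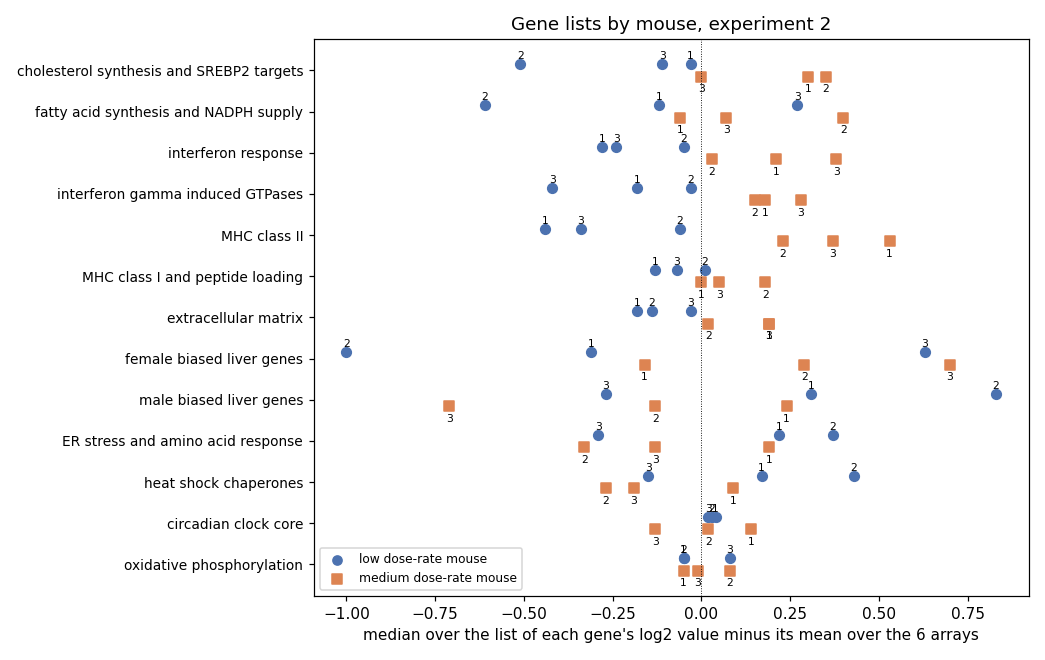
Median over each gene list of the log2 value minus the gene's mean over the 6 arrays (horizontal axis), for each low (circle) and medium (square) mouse, with the mouse number beside it. Low and medium mice do not overlap for cholesterol synthesis, interferon response, interferon gamma induced GTPases, MHC class II and extracellular matrix, and do overlap for fatty acid synthesis and for the sex-biased lists, where low mouse 2 and low mouse 3 are far apart.

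The highest-ranked genes outside these lists came from several processes. Among those higher in medium mice, with an adjusted p of 0.138 each, were Gins1, a subunit of the replication helicase (146, 142 and 160 against 281, 358 and 283, 1.00 ± 0.20), and Pde4b, a cyclic AMP phosphodiesterase (347, 211 and 362 against 883, 767 and 659, 1.33 ± 0.28). Groups did not overlap in either. Pde4b was also higher in the medium mice at 485 days (0.82 ± 0.28), where Gins1 was -0.06 ± 0.20. Sirt5, a mitochondrial desuccinylase, was 1009, 1042 and 1182 against 1745, 1856 and 1882 (0.76 ± 0.16), and the liver-secreted factor Lect2 was 3803, 4048 and 3834 against 8897, 5047 and 6686 (0.78 ± 0.17). Stard3nl, a membrane protein of late endosomes (0.62 ± 0.13), the macrophage adaptor Pstpip2 (0.76 ± 0.16), the sulfotransferase Sult1b1 (0.69 ± 0.15), the homocysteine methyltransferase Bhmt (0.39 ± 0.09) and the crosslink repair nuclease Dclre1a (0.86 ± 0.19) completed the 12 highest-ranked genes. The other probe set of Dclre1a had the opposite sign.

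Among the lower genes, Angptl8, an insulin- and feeding-induced liver hormone that restrains lipoprotein lipase, came next after Nop58. It read 5392, 4067 and 1944 in low mice and 905, 1135 and 1088 in medium mice (-1.74 ± 0.32, adjusted p = 0.138). The medium mice sat near the control pool (1224), while the high mice (2673, 2582 and 2404) lay within the range of the low mice. Zbtb16, a glucocorticoid-induced transcription factor, read 857, 859 and 516 against 211, 206 and 307 (-1.58 ± 0.35, adjusted p = 0.138), with the pool at 1060 and the high mice at 193, 216 and 164. Here the pool lay with the low mice. Atg14, which directs autophagy (-0.68 ± 0.14), the ubiquitin ligase Ube3a (-0.66 ± 0.14, with 1 of 5 other probe sets opposite) and Zfp830 (-0.63 ± 0.14) had the same adjusted p of 0.138. Fmr1nb was -3.16 ± 0.66, but its signal was 88.9, 242 and 295 in low and 3.81, 78.5 and 3.69 in medium mice, so the medium mice were under their array medians. The lipid kinase Pik3c2a (-0.47 ± 0.11), the corepressor Tle4 (-1.26 ± 0.29) and the chromosome maintenance protein Smc6 (-0.58 ± 0.14) each had an adjusted p of 0.166.

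Genes of the DNA damage response had medians near that of all genes. Of 26 targets and checkpoint genes of p53, 16 were higher and 10 lower (median 0.08). Against 9.51% of all genes, 1 gene of the list had an unadjusted p under 0.05. That gene was Cdkn1a, the p21 cell cycle inhibitor, at 149, 208 and 236 in low mice and 411, 319 and 564 in medium mice (1.08 ± 0.37, adjusted p = 0.364). Groups were separate, the pool read 440 within the medium range, and the difference at 485 days was -0.39 ± 0.37. Without low mouse 3 the p53 list had 21 of 26 members higher and a median of 0.19, and without low mouse 2 a median of 0.02. DNA repair genes had 24 of 34 members higher (median 0.10), with the end-joining factors Xrcc5 (0.39 ± 0.16) and Xrcc4 (0.50 ± 0.24) at an unadjusted p under 0.05, against 9.51% of all genes. Without low mouse 2 none of the members had one in limma, against 5.65% of all genes. Antioxidant genes split 15 to 14 (median 0.01), with the haem oxygenase Hmox1 at -0.54 ± 0.20 and the glutathione transferase Gstm2 at 0.82 ± 0.34. Antioxidant genes with an unadjusted p under 0.05 were 3 higher, against 5.18% of all genes, and 1 lower, against 4.33%. Without low mouse 3 they were 6 higher and 1 lower, where 13% of all genes had such a p. Without low mouse 1 (6.71% of all genes) or low mouse 2 (5.65%), 0 were higher and 1 lower. Without medium mouse 3 (7.37%), 0 had such a p in limma. In the cell cycle list E2f8 was -1.34 ± 0.40 and Mcm2 0.60 ± 0.28, with 13 of 20 members higher.

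Extracellular matrix genes were higher in 22 of 28 members (median 0.29), and in 7 the medium mice all lay above the low mice, against 8.55% of all genes. Among the higher members only Col18a1 (0.36 ± 0.14, adjusted p = 0.421), a basement membrane collagen, and the protease Mmp2 (0.72 ± 0.33, with its 1 other probe set opposite) had an unadjusted p under 0.05, against 5.18% of all genes. After centring each array on its median, 0 members were higher at such a p in limma (median 0.24). The summed signal of 14 stellate cell and fibroblast markers, some of them matrix genes, was 23541 to 27646 in low and 25109 to 29103 in medium mice, and its part in these values was not tested.

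The metabolic lists had medians closer to that of all genes. In methionine metabolism 9 of 12 were higher (median 0.14) and 4 of those had an unadjusted p under 0.05, against 5.18% of all genes, among them Bhmt, Bhmt2 (0.33 ± 0.13) and Mat1a (0.30 ± 0.13). Without low mouse 2 that count was 1 and without medium mouse 3 it was 2, and without medium mouse 2 the median was 0.07. Of all 11216 genes, 362 were higher at such a p without low mouse 2 and 434 without medium mouse 3. After centring each array on its median, 1 member was higher at such a p (median 0.09). Bile acid genes split 11 to 9 (median 0.03), with Cyp8b1, which makes cholic acid, at 0.91 ± 0.35 and Nr0b2, a repressor of bile acid synthesis, at -0.85 ± 0.31. Fatty acid oxidation (34 members, median 0.07), drug metabolism (34, 0.08), acute phase proteins (24, 0.07) and apolipoproteins (19, 0.11) had medians near 0, and the lipid-carrying Apoa4 was 1.07 ± 0.39 (adjusted p = 0.400). For fatty acid oxidation the direction depended on single mice. Without low mouse 3, 28 of 34 members were higher (median 0.17) with 7 at an unadjusted p under 0.05, against 13% of all genes. Without low mouse 2, 15 were higher and 19 lower (median -0.02). The median was also -0.01 without medium mouse 3. Drug metabolism genes had 3 higher members at an unadjusted p under 0.05, against 5.18% of all genes. Without low mouse 3 they had 7, where 807 of all 11216 genes were higher at such a p. Oxidative phosphorylation had 17 higher and 18 lower of 35 members, none at an unadjusted limma p under 0.05. In the clock list 10 of 15 were lower (median -0.09), with Clock at -0.55 ± 0.18 (1 of 3 other probe sets opposite) and Cry2 at 0.48 ± 0.20. Immediate early genes, which respond within minutes to hormones and stress, had 7 higher and 11 lower members (median -0.08). An unadjusted limma p under 0.05 was found in 2 of the higher ones, against 5.18% of all genes. It was found in 3 of the lower ones, against 4.33%. Dusp1 (-1.0 ± 0.31), Junb (-0.71 ± 0.26) and Klf2 (0.61 ± 0.20) had separate groups. Myc was 1.44 ± 0.54, where medium mouse 1 at 762 stood far above the other medium mice at 122 and 199.

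Of the genes that earlier results of these data had singled out in other contrasts, Ccdc8 and Angptl4 overlapped between the groups and Rnf125 did not. Ccdc8 was 114, 129 and 139 in low mice and 118, 136 and 105 in medium mice (-0.09 ± 0.34), and Angptl4, an inhibitor of lipoprotein lipase, was -0.37 ± 0.28 with overlap. Rnf125, a ubiquitin ligase, was 14638, 14198 and 16198 against 17337, 17950 and 19024 (0.27 ± 0.10, adjusted p = 0.409), with separate groups.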

How the data were processed

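Liver RNA had been hybridized as biotinylated cRNA to Affymetrix arrays. The deposited values are linear signal intensity, computed by the authors with MAS5 per the submitters' processing notes. The version of MAS5 and any detection calls are not given in the sources used here. Each array had a mean of 500 once the 2% highest and 2% lowest signals were trimmed, which shows a common scaling. Each irradiated array is a separate mouse per the labels.

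Signals were used as log2(signal + 7.12), 7.12 being the 10th percentile of all signals. Of 45101 probe sets, 64 were controls. The platform annotation gave 1 symbol to 34945, several to 932 and none to 9160. The upper part by mean signal, from the median up, was kept (22519 probe sets), with 1 per gene (not _s_at or _x_at where possible, then the highest mean), which left 11216 genes. A linear model of limma 3.58.1 (R 4.3.3, lmFit and eBayes with a variance trend) with 1 mean per group was fitted to all 20 arrays with 12 residual degrees of freedom. Contrasts were two-sided with Benjamini-Hochberg adjustment at 0.05. The difference between experiments was a contrast of the same fit. The procedure was tested on simulated data. The number of arrays limits the precision.

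Named were the 12 genes with the smallest p in each direction among those with a mean signal of at least 200 in the higher group, those past the threshold, up to 4 members of each list by p, the 5 smallest p for the difference between experiments, and Ccdc8, Rnf125 and Angptl4. Gbp3, Fdps, Cd74 and Hspa5 are examples chosen after their values were seen. The 29 pathway and 13 cell type lists held 857 symbols, 755 on the array and 656 tested. The contrast, the lists and the named genes were chosen with earlier results of these data known. Figures were drawn with matplotlib 3.10.9 in Python 3.11.15.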

Additional observations from a re-analysis of the deposited data

Results flagged for a closer look

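For 8 of 178 named genes, the medium and low mice were separate in opposite directions in the 2 experiments. The value given is the difference between medium and low at 401 days minus that at 485 days, on the log2 scale, tested as a contrast of the same limma fit. It was -2.70 ± 0.46 for Angptl8, 2.14 ± 0.37 for Gbp6 and -1.09 ± 0.18 for Dennd11 (adjusted p = 0.0693 for each). It was -2.15 ± 0.44 for the phosphatase Dusp1 (adjusted p = 0.144), -0.88 ± 0.29 for Pck1, the rate-limiting enzyme of gluconeogenesis (adjusted p = 0.346), and -0.71 ± 0.20 for Zfp830 (adjusted p = 0.289). Apon, which encodes apolipoprotein N, had 0.37 ± 0.11 (adjusted p = 0.312) and the class I gene H2-K1 0.33 ± 0.13 (adjusted p = 0.465). None of the 8 passed the adjusted threshold for this difference. Angptl8 read 1039, 937 and 1394 in low mice and 2143, 2623 and 1784 in medium mice at 485 days, the reverse of the order at 401 days. Dusp1 read 1401, 1786 and 1408 against 3788, 4594 and 2234 at 485 days and 3304, 6434 and 2358 against 1874, 1560 and 2120 at 401 days. Of all 11216 genes, 101 (0.9%) had such opposite separation, and 102 had separation in the same direction. The named genes were chosen partly by the p of these differences, so their share cannot be set against that of all genes.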

How the results depend on the processing

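The count of 2 genes past the threshold was 2 with either other pseudocount and with the highest-mean probe set. It was 0 without a filter, when the top 30% of probe sets alone were tested, with quantile normalization, with only the 6 arrays and with only experiment 2. It was 1 with median-centred arrays (Stap1), with no variance trend (Nop58) and with the replicate block (Stap1), and 0 to 15 over the omissions of 1 mouse. Unadjusted p values under 0.05 numbered 1453 of 18193 genes with no filter (7.99%) and 861 of 7912 with the top 30% (10.9%). They numbered 1062 with quantile normalization (9.47%) and 804 with median-centred arrays (7.17%). With the 6 arrays they were 1207 (10.8%), with experiment 2 only 1278 (11.4%) and with the replicate block 1285 (11.5%). For the difference between experiments the count of 0 was 3 with median-centred arrays (Angptl8, Dennd11 and G0s2), 4 with the replicate block, 0 to 13 over the omissions, and 0 under the other alternatives run. Genes with separate groups numbered 1400 to 2500 over 5 alternatives, 1400 of 7912 with the top 30% (17.7%) and 2500 of 18193 with no filter (13.7%). The cause of these shifts was not tested. Same-numbered low and medium mice had correlations of their deviations of 0.06, -0.02 and 0.22, and differently numbered ones -0.21 to 0.17. With 3 mice per group these values are too few to show whether the numbers pair the mice. The main fit treated them as unpaired. Of 1687 values of 100 named genes, 1659 kept direction and side of the threshold, 7 passed it newly, 20 lost it, and Angptl4 changed sign with no filter (0.16, adjusted p = 0.978). Of 713 list medians, 26 moved by more than the spread between mice. At 485 days, omissions of 1 mouse were added after the data were seen. Of 48 medians of 8 lists there, 5 changed sign or moved by more than the spread between mice, among them B and plasma cell markers without medium mouse 2 (0.11). For these a change of sign was counted whatever its size.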

Other observations

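G0s2, an inhibitor of the main triglyceride lipase, was 9165, 7716 and 15298 in low mice and 4106, 4222 and 9584 in medium mice at 401 days (-0.90 ± 0.27, adjusted p = 0.309), and its difference between experiments was -2.01 ± 0.38 (adjusted p = 0.132, limma). At 485 days it read 4928, 4414 and 4815 in low and 9307, 13165 and 8657 in medium mice. Dennd11 read 858, 822 and 978 in low and 688, 563 and 663 in medium mice at 401 days, and 733, 694 and 592 against 1093, 1014 and 991 at 485 days. Both genes were thus lower in medium mice at 401 days and higher at 485 days, as was Angptl8. The groups of G0s2 overlapped at 401 days. The 2 experiments also differed in dose-rates, age at killing and Gapdh ratios, which cannot be told apart from duration.

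Lrat, the retinol esterifying enzyme of stellate cells, was 711, 880 and 750 in low and 1270, 1179 and 1027 in medium mice (0.57 ± 0.15, adjusted p = 0.257), with separate groups. Hsd3b7, an early enzyme of bile acid synthesis, was 21162, 21038 and 21636 against 28369, 25507 and 27787 (0.35 ± 0.09, adjusted p = 0.238), with very little spread among the low mice. Agxt, a glyoxylate-detoxifying aminotransferase, was 10972, 7294 and 8105 against 12919, 12080 and 10606 (0.45 ± 0.13, adjusted p = 0.262), with overlap between low mouse 1 and medium mouse 3. Cyp2c50, a drug-metabolizing cytochrome, was 31568, 28926 and 30224 against 42828, 39059 and 37630 (0.40 ± 0.11, adjusted p = 0.281), with separate groups.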
